A study of Mus musculus with 6 samples.

Results

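Notch pathway transcripts were compared between 2 haematopoietic populations that had been isolated by flow cytometry from wild-type mice of the strain C57BL/6. The genes were taken from a list of 36 receptors, ligands, proteases, modulators and targets. Each was represented by its probe set, the group of short probes for a transcript, with the highest mean log2 intensity over the 6 arrays. A total of 35 of the 36 genes were measured, out of 18193 genes of the array, by 68 probe sets. No probe set was listed for Maml3, a nuclear coactivator, in the annotation used. LSK cells, low in lineage markers and positive for Sca-1 and Kit, hold the stem cells and multipotent progenitors. LK cells are low in lineage markers, positive for Kit and without Sca-1, and hold the committed progenitors. No treatment, allele or age sets the populations apart in the labels. Each population had 3 arrays, which limits the precision of every value, and the labels do not say whether the arrays came from separate animals.

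Notch receptors are cell surface proteins that are activated by Jagged and Delta-like ligands on a neighbouring cell. Binding exposes the receptor to an Adam protease and then to the gamma-secretase complex, which frees its intracellular domain. That domain enters the nucleus, joins the DNA-binding protein Rbpj and a Mastermind coactivator, and switches on targets such as the Hes and Hey repressors. In blood formation the pathway is best known for its part in the choice of the T-cell fate, and in how stem cells form in the embryo. Numb, an inhibitor of Notch, is a known target of Musashi proteins, which the title of the study names.

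Notch1 was higher in LSK than in LK, and it was the only one of 35 members past the threshold (an adjusted p under 0.05 from limma, Benjamini-Hochberg over all genes). That is 2.86% of the members, against 6.73% of all genes tested. The labels number the arrays 1 to 3 in both populations. With that number as a block, Notch1, Mfng and Lfng were higher and Dtx4 was lower in LSK. These 4 are 11.4% of the members, against 14.4% of all genes in the same fit. The arrays of the populations did not overlap for 11 members (31.4%, against 28.0% of all genes). Of these, 7 had all LSK arrays above the LK arrays (13.2% of all genes did) and 4 had them below (14.8%). The median log2 difference, LSK minus LK, was 0.0040 over the members and -0.022 over all genes. Log2 intensities around 3 lie toward the lower end of the range of these arrays, whose lowest value was 1.84. Median linear intensities of the arrays, 7.88 to 8.49, lie near a log2 of 3. Means under 4 in both populations were found for 18 members (51.4%) and for 56.2% of all genes. For such genes a difference may be compressed or missed, though some passed, such as Gata3 and Tle2 below. The plot of the members by array shows this split within each role.

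**Figure D1:**
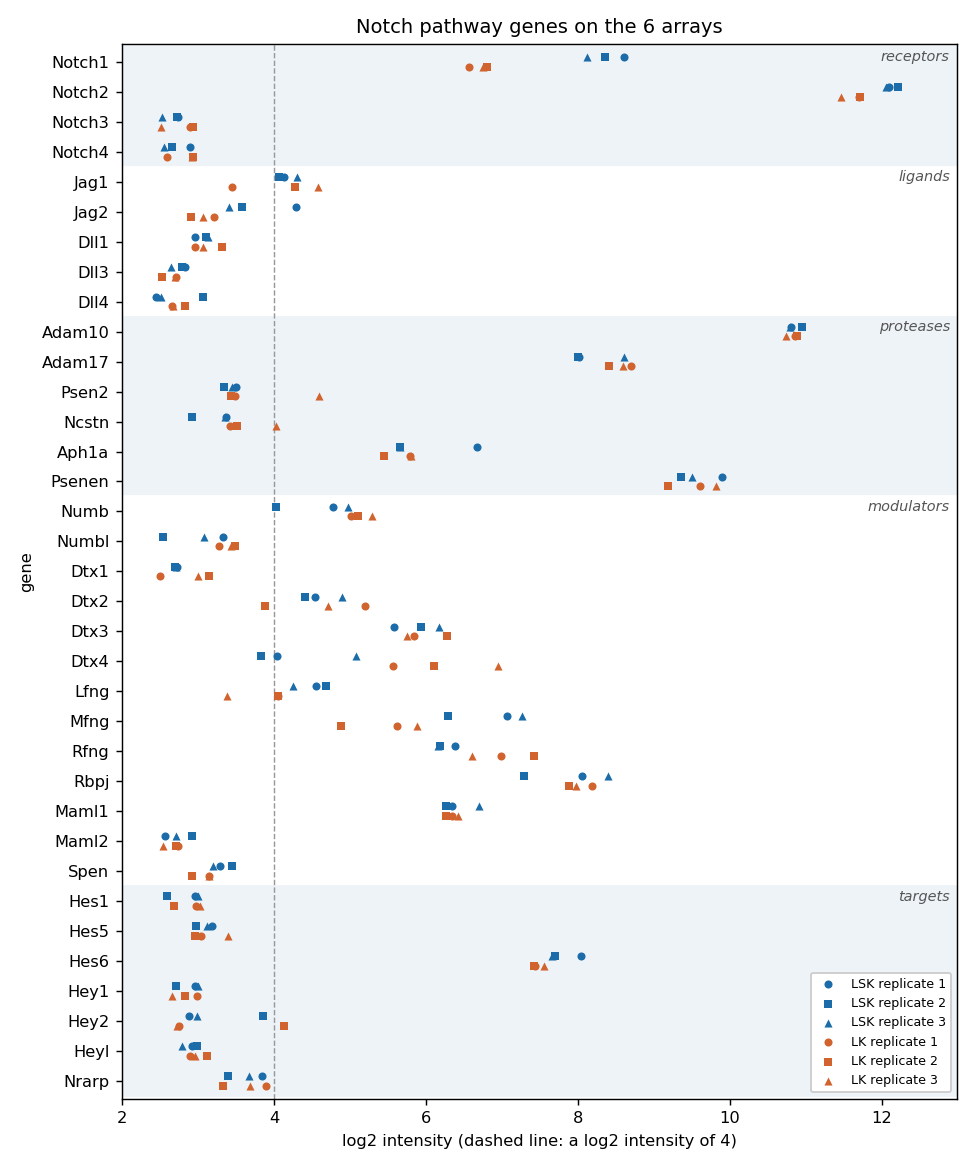
Log2 intensity (x axis) of the probe set that represents each of 35 Notch pathway genes (y axis, grouped by role) on the 3 LSK arrays (blue) and the 3 LK arrays (orange), with the marker shape giving the replicate number. Notch1, Mfng, Lfng, Rfng and Dtx4 have blue and orange points that do not overlap, and 6 of the 7 targets lie left of the dashed line at 4 in their population means.

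The labelled populations were checked against marker genes. Of 7 measured stem and multipotent cell markers, 6 were higher in LSK, with mean log2 levels over the list of 7.68 to 8.13 on LSK and 4.46 to 5.11 on LK arrays. Of 6 erythroid markers 5, and of 5 granulocyte-macrophage markers 4, were lower in LSK, and with the replicate block 6 and 5 were. All 6 T-cell markers had means under 4 in both populations, as did 4 of 5 B-cell, 5 of 6 endothelial and 5 of 6 stromal markers. The exceptions were Cd79b, Emcn and Pdgfrb. Of these Emcn was higher in LSK (1.77, limma adjusted p = 0.0119), and Cd79b (-0.01) and Pdgfrb (0.87) did not pass. Mean levels over these lists were 2.63 to 3.01 for T-cell, 2.94 to 3.30 for B-cell and 3.12 to 3.37 for stromal markers on the 6 arrays. For endothelial markers they were 3.09 to 3.30 on LSK and 2.70 to 2.92 on LK arrays, with 3 positive and 3 negative differences among the 6 genes. The replicate 2 arrays of both populations lay at -31.7 and -41.2 on the second principal component, and the other 4 at 7.25 to 29.8. Control probe sets at the 3' end of Actb and Gapdh exceeded those at the 5' end by a mean log2 value of 2.64 ± 0.56 in LSK and 3.53 ± 0.36 in LK (SD, n = 3), and more 3' bias gives a higher value. Immediate early genes, which cell handling can induce, had mean levels of 7.73 to 9.14 on LSK and 6.63 to 7.60 on LK arrays. Of 9 such genes 2 were higher in LSK, and 7 with the replicate block. The part of the 3' bias and of these genes in the results below was not tested beyond the values given.

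Of the 4 receptors, Notch1 and Notch2 were well above the lower end of the range and Notch3 and Notch4 were at it. Notch1, the receptor that directs T-cell commitment, had log2 intensities of 8.61, 8.36 and 8.12 in LSK and 6.57, 6.81 and 6.75 in LK. The lowest LSK array lay above the highest LK array. Their means differed by 1.65 (SE 0.17), which is 3.14-fold (limma adjusted p = 0.00487). It stood at 2.04, 1.55 and 1.37 in the pairs of arrays numbered 1, 2 and 3. Notch1 passed in each of the 6 fits that left out 1 array, with adjusted p from 0.00937 to 0.0294, and without both replicate 2 arrays (1.70, adjusted p = 0.0338). When the 3' bias of each array entered the fit as a covariate, the difference was 1.49 (SE 0.26) and the adjusted p 0.155. In that fit 0 of 35 members and 25 of 18193 genes passed. In sorted bulk populations, fewer cells with the transcript and less transcript per cell cannot be told apart.

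The other Notch1 probe set was dim, with log2 intensities of 3.86, 3.04 and 3.71 in LSK and 2.70, 2.69 and 2.98 in LK. Its arrays did not overlap either, and it lay in the same direction without passing over all probe sets (0.75, adjusted p = 0.155). The promoter is shown because Notch1 is the member that passed. These are the 250 bases before the RefSeq start of Notch1 on the minus strand of GRCm38.p6, at chr2:26503823-26504072. Of these bases 66.0% are G or C, and neither of the motifs searched below was found.
Notch1: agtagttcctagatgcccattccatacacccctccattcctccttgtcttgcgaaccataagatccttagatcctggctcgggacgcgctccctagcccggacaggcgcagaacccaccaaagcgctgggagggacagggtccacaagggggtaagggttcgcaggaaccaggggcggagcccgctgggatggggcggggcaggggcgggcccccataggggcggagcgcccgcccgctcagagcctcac

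Notch2, a receptor of marginal zone B cells among other roles, was bright in both populations. It had log2 intensities of 12.10, 12.22 and 12.05 in LSK and 11.70, 11.72 and 11.47 in LK. The LSK arrays all lay above the LK arrays, with a narrow gap. The difference of 0.49 (SE 0.13), or 1.41-fold, did not pass, with a limma adjusted p of 0.0796, or 0.0629 with the block. Notch2 did pass with trend and robust variances (adjusted p = 0.0242) and with array weights (0.58, adjusted p = 0.0241). It passed in none of the 6 limma fits that left out 1 array (adjusted p from 0.111 to 0.2475). Nor did it pass without dim genes (0.103), without both replicate 2 arrays (0.177) or with the 3' bias as a covariate (0.612). The 95% interval of the difference ran from 0.17 to 0.81. The difference of the log2 intensities of Notch1 and Notch2 within an array was -3.49, -3.86 and -3.94 in LSK and -5.13, -4.91 and -4.72 in LK. Its mean was 1.16 higher in LSK, so the probe set of Notch1 shifted further than that of Notch2. This contrast was chosen after its values were seen and was not tested.

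Notch3 had log2 intensities of 2.74, 2.73 and 2.53 in LSK and 2.89, 2.94 and 2.51 in LK. Notch4, a receptor of endothelial cells, had 2.89, 2.66 and 2.55 in LSK and 2.60, 2.94 and 2.92 in LK. The populations overlapped for both genes, and all 5 of their probe sets had means under 3.

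The ligands were dim in both populations. Of the 5, 4 had means under 4 in both, and none passed, with or without the block. Jag2, a Jagged ligand, had the largest difference toward LSK. Its log2 intensities were 4.28, 3.57 and 3.41 in LSK and 3.21, 2.90 and 3.06 in LK, without overlap. The difference was 0.70 (SE 0.24), with a limma adjusted p of 0.153, or 0.0574 with the block. Its other probe set had means of 2.68 and 2.40 and a difference of 0.28. Dll4, a ligand of the thymus and of vessels, had the largest difference toward LK, at -0.05 (SE 0.19). It had 2.45, 3.07 and 2.51 in LSK and 2.66, 2.83 and 2.67 in LK, and the populations overlapped. Jag1 had means of 4.16 and 4.10 in LSK and LK, with LK arrays from 3.45 to 4.57. Dll1 and Dll3 had means from 2.64 to 3.11 and differences of -0.04 and 0.11.

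The proteases showed no difference past the threshold in any of 6 genes, with or without the block. Adam10, which makes the first cut of the receptor after ligand binding, had log2 intensities of 10.81, 10.96 and 10.80 in LSK and 10.85, 10.88 and 10.74 in LK. The arrays overlapped, and the difference of 0.03 had a 95% interval from -0.26 to 0.33. For this probe set, a difference of more than 0.33 in either direction lies outside the interval. Its next brightest probe sets had differences of 0.63 and 0.72, neither past the threshold over all probe sets (adjusted p = 0.303 and 0.507), so the Adam10 probe sets were not uniform. Adam17, a related protease, had means (± SD, n = 3) of 8.21 ± 0.34 in LSK and 8.57 ± 0.15 in LK and a difference of -0.36 (95% interval from -0.84 to 0.12).

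None of the 4 gamma-secretase subunits passed. Psenen, which completes the complex, had means (± SD, n = 3) of 9.59 ± 0.28 in LSK and 9.54 ± 0.32 in LK, a difference of 0.05. Aph1a had the largest difference of the proteases toward LSK, 0.32 (SE 0.30), with 6.67, 5.67 and 5.67 in LSK and 5.79, 5.45 and 5.81 in LK. LSK replicate 1 was the highest array, and without it the difference was -0.017. The Aph1a probe set carries a suffix that marks possible cross-hybridisation. A dim probe set without a suffix, with means of 2.74 and 2.69, had a difference of 0.06. Ncstn, the subunit that receives the substrate, had the largest difference of the proteases toward LK, -0.44 (SE 0.21, adjusted p = 0.296). Its levels were low, with 3.36, 2.92 and 3.35 in LSK and 3.42, 3.51 and 4.02 in LK, without overlap. Psen2, a catalytic subunit, had means of 3.43 and 3.84, with LK replicate 3 at 4.59 and the other 5 arrays from 3.34 to 3.50.

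**Figure D2:**
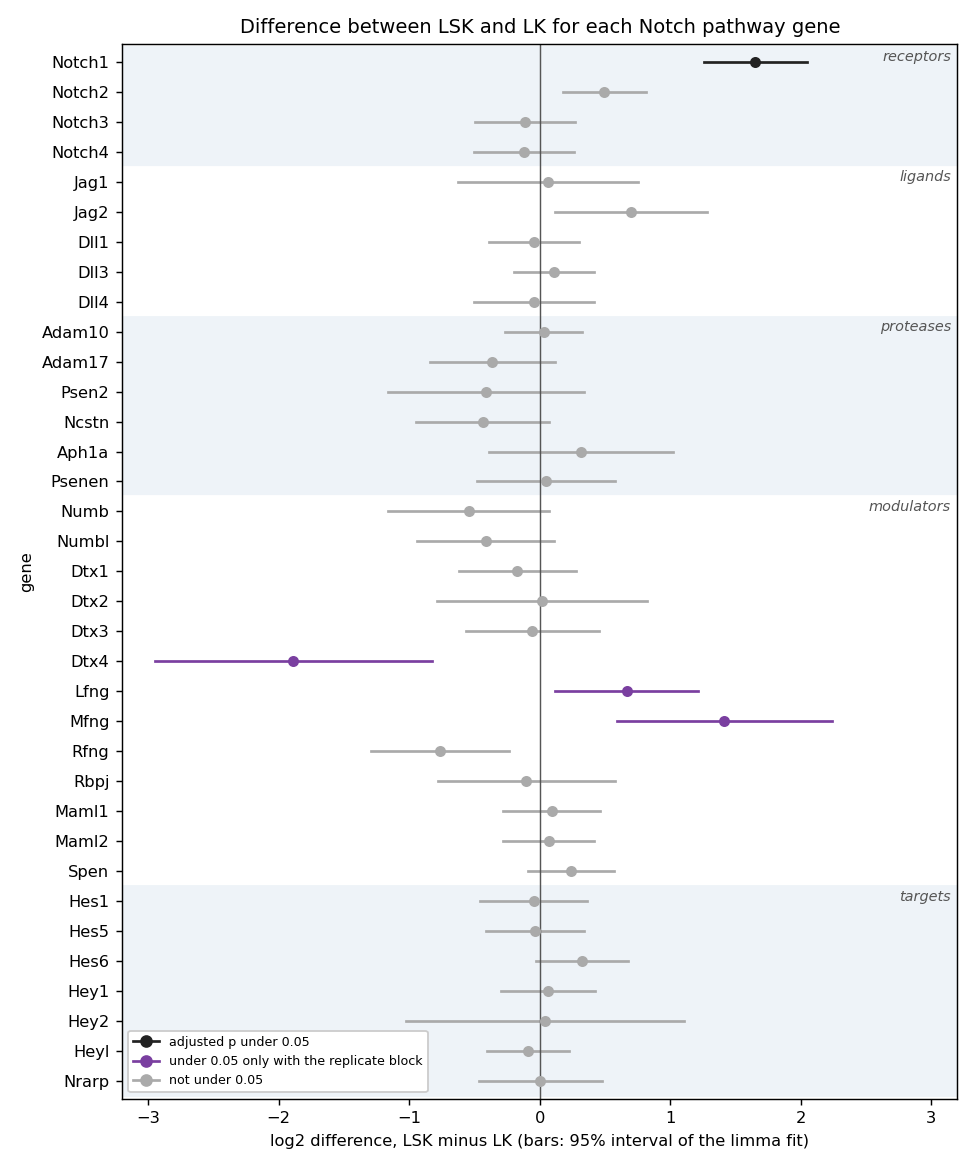
Log2 difference, LSK minus LK (x axis), for each of 35 Notch pathway genes (y axis, grouped by role), with bars for the 95% interval of the limma fit. Notch1 at 1.65 is the gene past the threshold, Mfng, Lfng and Dtx4 passed when the replicate number was a block, and most of the others lie near 0.

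Among the modulators, the Fringe genes gave differences of opposite sign. Fringe enzymes add a sugar to Notch in the Golgi, which changes how the receptor answers Delta-like and Jagged ligands. Mfng, Manic fringe, had log2 intensities of 7.07, 6.29 and 7.27 in LSK and 5.62, 4.89 and 5.89 in LK. No LK array reached the lowest LSK array, and replicate 2 was the lowest in each population. The difference of 1.41 (SE 0.35), or 2.66-fold, had a limma adjusted p of 0.0609. The 3 pairs gave 1.45, 1.40 and 1.39, and with the replicate block Mfng was higher in LSK (SE 0.13, adjusted p = 0.00502). Mfng also passed without both replicate 2 arrays (1.42, adjusted p = 0.0322) and without LSK replicate 2 (1.71, adjusted p = 0.0492), and in none of the other 5 fits without 1 array. Further limma passes came after renewed quantile normalisation (adjusted p = 0.0242), after cyclic loess (0.0196) and without dim genes (0.0360). Trend and robust variances (0.0427) and array weights (0.0273) gave a pass as well. Mfng did not pass with averaged probe sets (0.0626), with probe sets lacking an _x, _s or _a suffix (0.0699) or with the 3' bias as a covariate (0.508).

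Lfng, Lunatic fringe, had 4.55, 4.68 and 4.25 in LSK and 4.06, 4.06 and 3.38 in LK, without overlap. Their means differed by 0.67 (SE 0.23), which is 1.59-fold (limma adjusted p = 0.147). The pairs gave 0.50, 0.62 and 0.87, and with the replicate block Lfng was higher in LSK (adjusted p = 0.0364). Lfng also passed with array weights (0.92, adjusted p = 0.0385), and in none of the 6 fits without 1 array (adjusted p from 0.144 to 0.319). It passed in no other alternative, with an adjusted p of 0.287 for averaged probe sets and 0.797 with the 3' bias as a covariate. Its level was low, and its other probe set had means of 2.92 and 2.81 and a difference of 0.12.

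Rfng, Radical fringe, lay the other way, with 6.39, 6.18 and 6.15 in LSK and 6.99, 7.43 and 6.60 in LK. The populations did not overlap. The difference of -0.76 (SE 0.22), or 1.70-fold, did not pass, with a limma adjusted p of 0.0952, or 0.0558 with the block. Its 95% interval ran from -1.30 to -0.23, and it was -0.53 without both replicate 2 arrays. The other Rfng probe set was dim, with means of 2.75 in LSK and 2.62 in LK and a difference of 0.13. The difference of the log2 intensities of Mfng and Rfng within an array was 0.68, 0.10 and 1.12 in LSK and -1.37, -2.54 and -0.72 in LK. Its mean was 2.18 higher in LSK, and that of Lfng minus Rfng was 1.43 higher. Both contrasts were chosen after their values were seen and were not tested.

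The promoter of Lfng is shown because Lfng is a member with both a difference in the blocked fit and a motif of the pathway. A total of 29 of the 35 measured genes matched RefSeq promoters of GRCm38.p6, with 37 start sites. Mfng, Dtx3, Dtx4, Hes1, Hey1 and Heyl had no such promoter window and were not searched. The 250 bases before each start were searched on both strands for GTGGGAA, a form of the Rbpj site, and for CACGTG, an E box that Hey and Myc proteins can bind. GTGGGAA was found in 5 of the 37 windows, against 5.42% of 32851 windows of all genes, and CACGTG in 4, against 6.02%. The 5 genes with GTGGGAA were Psen2, Lfng, Spen, Hes5 and Hey2. In Lfng the 2 motifs overlap, 112 and 109 bases before the start, and are in capitals in this plus-strand window at chr5:140607091-140607340. A match of letters does not show that a protein is bound.
Lfng: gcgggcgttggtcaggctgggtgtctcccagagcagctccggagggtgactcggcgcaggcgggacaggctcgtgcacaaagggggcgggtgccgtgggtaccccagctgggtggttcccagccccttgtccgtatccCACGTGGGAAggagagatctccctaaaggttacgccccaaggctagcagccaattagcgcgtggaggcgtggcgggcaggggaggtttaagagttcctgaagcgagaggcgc

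Deltex proteins are ubiquitin ligases that bind the intracellular part of Notch. Dtx4 had log2 intensities of 4.04, 3.83 and 5.08 in LSK and 5.57, 6.10 and 6.95 in LK. The highest LSK array stayed below the lowest LK array, and replicate 3 was the highest in each population. The difference of -1.89 (SE 0.44), or 3.70-fold toward LK, had a limma adjusted p of 0.0553. The pairs gave -1.52, -2.27 and -1.88, and with the replicate block Dtx4 was lower in LSK (adjusted p = 0.00587). Its other probe set, with 3.94, 3.38 and 4.38 in LSK and 5.63, 6.50 and 6.86 in LK, was lower in LSK over all probe sets. There the difference was -2.43 (SE 0.37, adjusted p = 0.0254), the other probe set besides that of Notch1 to pass among the 68. Over all 45037 probe sets, 3.21% passed. With the replicate block 5 of the 68 passed, both of Dtx4 and those of Notch1, Mfng and Lfng, against 9.24% of all probe sets. Dtx4 passed without LSK replicate 3 (-2.27, adjusted p = 0.0335), and in none of the other 5 fits without 1 array. Further limma passes came after renewed quantile normalisation (adjusted p = 0.0395), after cyclic loess (0.0466) and without dim genes (0.0299). Averaged probe sets (0.0302), trend and robust variances (0.0280) and array weights (0.0178) gave a pass as well. Dtx4 did not pass with probe sets lacking an _x, _s or _a suffix (0.0635) or without both replicate 2 arrays (0.190). With the 3' bias as a covariate it was -1.12 (adjusted p = 0.669). The other Deltex genes had no such difference, with -0.17 for Dtx1, 0.017 for Dtx2 and -0.06 for Dtx3. Dtx1, itself a Notch target in T cells, had means under 3 in both populations.

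**Figure D3:**
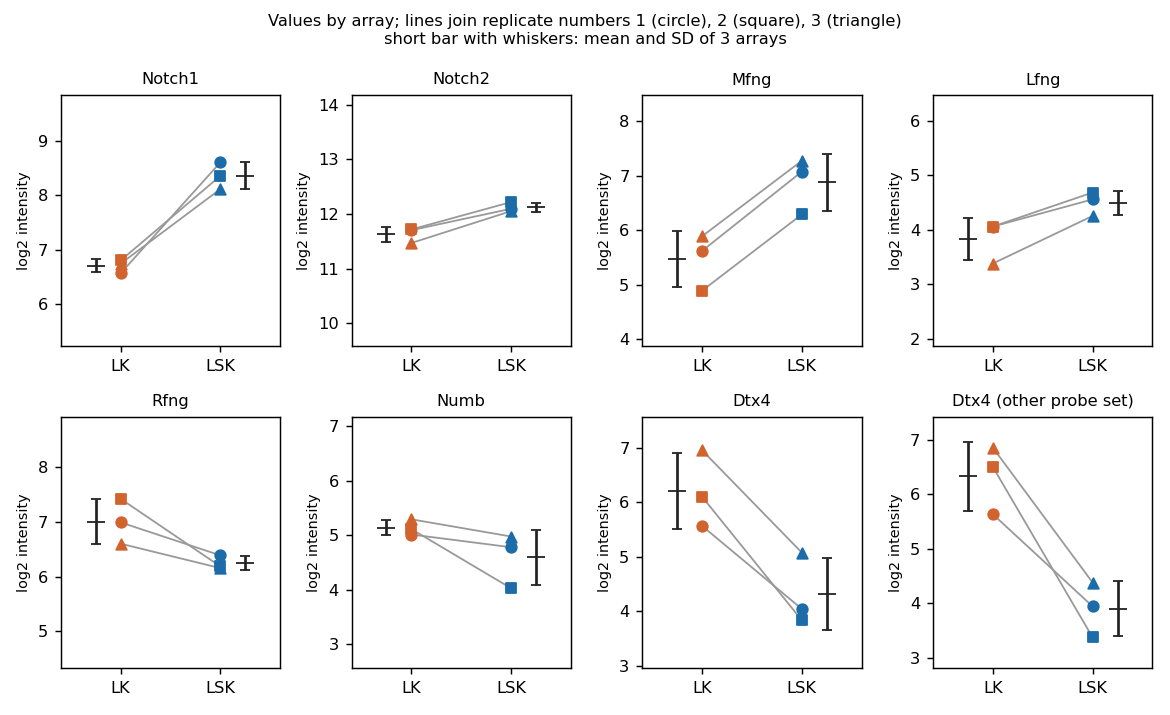
Log2 intensity (y axis, each panel spanning the same range) on the LK and LSK arrays for Notch1, Notch2, the 3 Fringe genes, Numb and both probe sets of Dtx4, with lines joining arrays of the same replicate number and short bars with whiskers for the mean and SD of 3 arrays. The lines of Mfng run nearly parallel (1.45, 1.40 and 1.39), and those of Dtx4 all fall from LK to LSK in both probe sets.

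Numb, an endocytic adaptor that inhibits Notch, had log2 intensities of 4.78, 4.02 and 4.97 in LSK and 5.01, 5.11 and 5.29 in LK. The populations did not overlap, by a gap that was small beside the spread of the LSK arrays. The difference of -0.55 (SE 0.26), or 1.46-fold toward LK, did not pass, with a limma adjusted p of 0.278, or 0.153 with the block. LSK replicate 2 was the lowest array, and without both replicate 2 arrays the difference was -0.28 (adjusted p = 0.490). Its other probe set had means of 2.65 and 2.58. Numbl, its paralog, had means of 2.98 and 3.40 and a difference of -0.41 (adjusted p = 0.336).

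None of the 4 measured nuclear factors passed, with or without the block. Rbpj, the DNA-binding partner of all Notch receptors, had means (± SD, n = 3) of 7.92 ± 0.56 in LSK and 8.02 ± 0.15 in LK. The difference of -0.10 had a 95% interval from -0.78 to 0.57, and its other probe sets had differences of 0.36 and -0.06. Maml1, a Mastermind coactivator, had means of 6.44 ± 0.23 and 6.34 ± 0.08 (SD, n = 3). Its 95% interval of -0.28 to 0.46 was narrower. Maml2 and Spen, a corepressor that binds Rbpj, had means from 2.66 to 3.31 in both populations. The arrays of Spen did not overlap, with a difference of 0.24 (adjusted p = 0.384).

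The targets gave no difference past the threshold in any of 7 genes, with or without the block. Hes6, a Hes family member that is less closely tied to Notch than Hes1, was the target above the lower end of the range. It had log2 intensities of 8.04, 7.70 and 7.66 in LSK and 7.44, 7.42 and 7.56 in LK, without overlap. The difference of 0.32 (SE 0.15) had a limma adjusted p of 0.266, or 0.241 with the block. Its probe set carries a suffix that marks possible cross-hybridisation, and the other Hes6 probe set had means of 2.73 and 2.69. Heyl, a Hey family repressor, had the largest difference toward LK, -0.09 (SE 0.13). It had 2.93, 2.99 and 2.79 in LSK and 2.89, 3.12 and 2.96 in LK, with overlap.

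Hes1, the Notch target most often used as a readout, had 2.96, 2.59 and 2.99 in LSK and 2.97, 2.68 and 3.03 in LK. Its only probe set lay at the lower end of the range on all 6 arrays, and the populations overlapped. The difference of -0.05 (SE 0.17) did not pass, and at this level a difference may be compressed or missed. Nrarp, a feedback inhibitor that Notch induces, had means (± SD, n = 3) of 3.64 ± 0.23 in LSK and 3.63 ± 0.28 in LK, a difference of 0.0040. Hes5 and Hey1 had means from 2.83 to 3.13. Hey2 reached 3.85 in LSK replicate 2 and 4.14 in LK replicate 2, and lay between 2.72 and 2.99 on the other 4, so it moved with the replicate number and not with the population.

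The promoter of Hes5 is shown because it holds GTGGGAA more than once, while the transcript was near the lower end of the range in LSK (3.09) and LK (3.13). The matches lie 226 bases before the start on the opposite strand, where the capitals show the reverse complement, and 83 bases before it on the strand of the gene. The plus-strand window is chr4:154960673-154960922 of GRCm38.p6.
Hes5: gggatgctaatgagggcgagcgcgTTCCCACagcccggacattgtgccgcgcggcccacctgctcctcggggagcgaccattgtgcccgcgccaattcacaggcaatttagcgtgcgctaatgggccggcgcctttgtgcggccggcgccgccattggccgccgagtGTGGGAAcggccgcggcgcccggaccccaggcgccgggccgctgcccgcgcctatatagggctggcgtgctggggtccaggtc

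**Figure D4:**
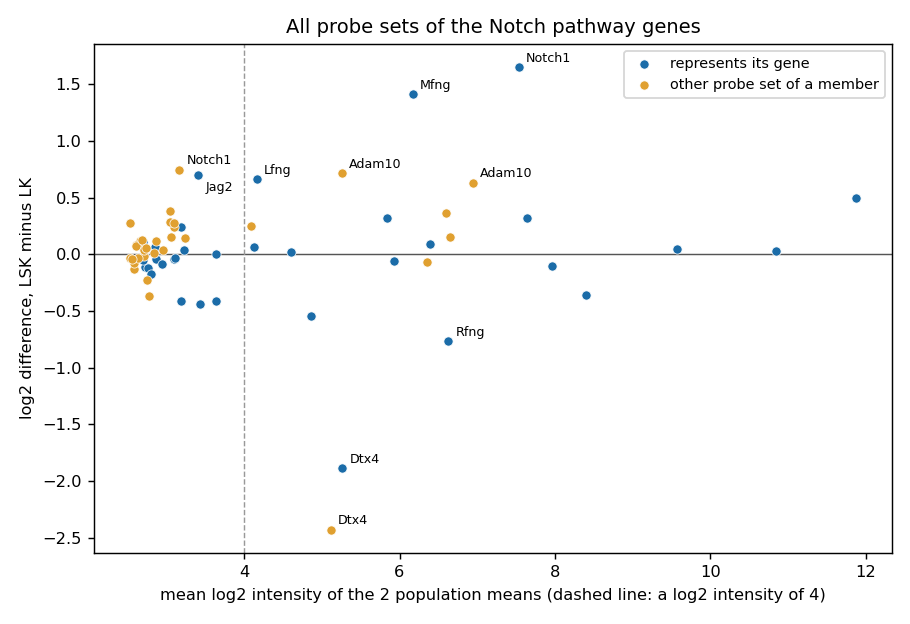
Log2 difference, LSK minus LK (y axis), against the mean log2 intensity of the 2 populations (x axis) for all 68 probe sets of the 35 measured Notch pathway genes, with the probe set that represents each gene in blue and the others in yellow. Left of the dashed line at 4 the differences stay within 0.75 of 0, and both Dtx4 probe sets lie far below 0.

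Other genes of the pathway were read from a second list of 47, of which 43 were measured. In limma 5 were higher in LSK, 1 was lower and 37 did not pass, against 3.84% of all genes higher and 2.89% lower. With the replicate block 9 were higher and 1 lower, against 7.02% and 7.36%. The median difference of the list was 0.06. None of 15 measured genes of receptor maturation and trafficking passed, and 2 were higher with the block. Of 4 other ligands none passed in either fit. Of 15 nuclear cofactors 4 were higher, or 5 with the block, and 1 was lower in both fits. Of 9 other targets 1 was higher, or 2 with the block.

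The 2 genes of maturation and trafficking that were higher with the block were Fbxw7 and Aph1b. Fbxw7, part of a ubiquitin ligase that marks the intracellular domain of Notch for breakdown, had 7.74, 8.16 and 7.69 in LSK and 7.12, 7.49 and 7.11 in LK. Its difference was 0.62 (SE 0.19), with an adjusted p of 0.101, or 0.0321 with the block, and averaged over its 2 probe sets it was 1.08 (adjusted p = 0.0242). Aph1b, a gamma-secretase subunit, had 4.20, 3.49 and 3.62 in LSK and 3.05, 2.88 and 3.08 in LK. Its difference was 0.76 (SE 0.21), with an adjusted p of 0.0804, or 0.0401 with the block, at means under 4. The populations did not overlap for either gene.

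Of 4 acetyltransferase genes, whose products act with the Notch complex on chromatin, 2 were higher, 1 was lower and 1 did not pass. They were grouped after their values were seen. Crebbp was higher in LSK, with 11.62, 11.69 and 11.39 in LSK and 10.64, 10.66 and 10.42 in LK (difference 0.99, SE 0.14, adjusted p = 0.0141). Kat2b was higher too, with 8.26, 8.60 and 8.35 against 7.48, 7.30 and 7.52 (0.97, SE 0.15, adjusted p = 0.0156). Its paralog Kat2a was lower in LSK, with 5.09, 4.52 and 5.12 against 6.25, 5.98 and 5.84 (-1.12, SE 0.21, adjusted p = 0.0300). The populations did not overlap for these 3 genes. Averaged over its 3 probe sets, the difference of Kat2a was -0.36 (adjusted p = 0.262). Ep300, the paralog of Crebbp, had overlapping arrays and a difference of -0.13 (SE 0.15, adjusted p = 0.662).

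Of the 4 Tle genes, which encode corepressors that Hes proteins recruit, 2 passed and 3 passed with the block. Tle4 and Tle2 were higher in LSK by 0.61 (adjusted p = 0.0299) and 0.70 (adjusted p = 0.0482). Tle2 had means under 4 in both populations, and the difference of Tle4 averaged over its 3 probe sets was 0.12 (adjusted p = 0.689). Neither passed in any of the 6 fits that left out an array, with adjusted p from 0.0586 to 0.111 for Tle4 and from 0.0784 to 0.128 for Tle2. Tle3 had the largest difference of the family, with 9.24, 9.17 and 8.33 in LSK and 7.89, 7.57 and 7.84 in LK, without overlap. The difference of 1.15 (SE 0.26), or 2.21-fold, had an adjusted p of 0.0521, or 0.0337 with the block. It was 0.49 (adjusted p = 0.127) averaged over the 4 probe sets and 0.46 (adjusted p = 0.598) with the 3' bias as a covariate, and it passed after renewed quantile normalisation (adjusted p = 0.0376) and without LSK replicate 3 (1.44, adjusted p = 0.0135). Tle1 had means of 3.04 and 2.91 and a difference of 0.13 (adjusted p = 0.624).

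Gata3, a transcription factor gene that Notch activates in early T cells, had 3.90, 3.43 and 3.94 in LSK and 2.31, 2.49 and 2.62 in LK. The populations did not overlap, and Gata3 was higher in LSK by 1.28 (SE 0.18, adjusted p = 0.0130), at means under 4. Ccnd1, which encodes cyclin D1, had the largest difference of the list, 1.73 (SE 0.51). It did not pass in limma (adjusted p = 0.0993) and was higher in LSK with the replicate block (adjusted p = 0.00823). Averaged over its 3 probe sets the difference was 0.85 (adjusted p = 0.0922), and with the 3' bias as a covariate it was 0.62 (adjusted p = 0.876). Without LSK replicate 1 or LK replicate 3, 0 of the 43 genes were higher, and there were 3 without either replicate 2 array or without LK replicate 1. Crebbp, Kat2b and Gata3 each passed in 4 of the 6 fits that left out an array, and failed without LSK replicate 1 (adjusted p = 0.0677, 0.0517 and 0.0620) and without LK replicate 3 (0.0668, 0.0627 and 0.0517). Kat2a passed in 1 of the 6, the fit without LSK replicate 3.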

How the data were processed

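RNA of sorted LSK and LK cells, 3 samples each, was amplified linearly, biotin-labelled and put on Affymetrix mouse expression arrays, per the labels' protocols. The deposited intensities, 1 linear value for each probe set and array, come from RMA (affy, R 2.11.0), per the submitters' processing notes. Since RMA brings the arrays to a similar distribution, a change common to all genes is invisible. The distributions were not equal, with upper quartiles of 21.96 (LSK) and 20.75 (LK) on the replicate 2 arrays and 24.2 to 25.73 on the others. Detection calls are not used here. Of 45101 probe sets, 64 controls were left out and 34945 carried exactly 1 gene symbol, brought up to date by gene identifier from RefSeq (GRCm38.p6). Log2 intensities were fitted by population alone in limma 3.58.1 (R 4.3.3, lmFit, eBayes), with two-sided p-values adjusted by Benjamini-Hochberg over 18193 genes or 45037 probe sets. A fold is that of the higher population. The fit was tested on simulated data.

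Samples with the same number deviated together (correlations across genes of 0.417, 0.433 and 0.273, against at most 0.039 between different numbers), a pairing that comes from the data and is partly built in. Where a block for the number changes the call of a gene of the pathway, its value is printed with the result. No pair of arrays was identical. The spread behind each p-value is that of these samples and may be technical. Members and lists were chosen with earlier results of these data known. Values by array are given for the receptors, members past the threshold in either fit and, in each role, the largest difference in each direction. Of the other pathway genes, those past the threshold and the largest differences are named. Fbxw7, Aph1b, Tle1, Tle3, Ep300, Numb, Rfng, Hes1, Hey2, Adam10, Cd79b, Emcn, Pdgfrb and the remaining members named with means were added after their values were seen. Alternatives were the block, 2 renewed normalisations, a filter on dim genes, other probe set choices, other variance models, array weights, the 3' to 5' covariate and leaving out arrays.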

Additional observations from a re-analysis of the deposited data

How the results depend on the processing

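The count of members higher in LSK was 1, and 3 with the replicate block, 2 after renewed quantile normalisation, 2 after cyclic loess, 2 without dim genes, 3 with trend and robust variances (Notch1, Notch2 and Mfng), 4 with array weights (these and Lfng), 0 with the 3' to 5' covariate, 2 without both arrays numbered 2 and 1 to 2 without 1 array. The count lower was 0, and 1 with the block, either normalisation, the dim filter, averaged probe sets, trend and robust variances or array weights, and 0 to 1 without 1 array. The median over members lay between -0.040 and 0.047 over 16 alternatives. Member probe sets past the threshold numbered 2, and 5 with the block, 4 with trend and robust variances, 0 with the covariate and 1 to 2 without 1 array.

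Other pathway genes higher numbered 5, and 9 with the block, 3 with specific probe sets, 9 with array weights, 0 with the covariate, 1 without both arrays numbered 2 and 0 to 4 without 1 array. The count lower was 1, and 0 with averaged probe sets, trend and robust variances, the covariate or both arrays numbered 2 left out, and 0 to 1 without 1 array.

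Over the array, 699 genes were higher and 526 lower. These became 1278 and 1339 with the block, 1305 and 1301 with array weights, 25 and 0 with the covariate, 371 and 166 without both arrays numbered 2, and 230 to 584 and 76 to 685 without 1 array. Genes lower were 839 after renewed quantile normalisation and 317 with specific probe sets.

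Signs of members changed in 13 of the 16 alternatives: 9 of 35 members with the covariate, 7 without both arrays numbered 2, 6 with array weights, 2 to 6 without 1 array, 3 with either normalisation or averaged probe sets, and 1 of 32 with specific probe sets. A total of 20 members changed in at least 1 fit, with main differences from -0.41 to 0.32, none of them past the threshold. Among them were Notch3 with array weights (0.050), Aph1a with the covariate (-0.15) and without LSK replicate 1 (-0.017), and Dll4 in 3 of the 6 fits without 1 array. Over these 6 fits Dll4 ranged from -0.24 to 0.068 and Aph1a from -0.017 to 0.49. Apart from the calls named beside the results, the block changed no call of a member. Ep300, no member, changed sign with the covariate (0.078). The 3' to 5' covariate raised the standard errors of all genes by a median ratio of 1.6. The cause of the losses was not tested. With 3 arrays a population and signals near the lower end of the range for 18 members, small differences may have been missed.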
